A study of Mus musculus with 7 samples.

Results

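Glucose transport, glycolysis and glycogen genes were examined in ventricles of mice with a genetic form of immune checkpoint inhibitor (ICI) myocarditis. The 35 genes were a named list of transporters, enzymes of each glycolytic step and glycogen enzymes, and each was matched to the row of that symbol among 23420 gene rows. Bulk RNA sequencing covered 7 hearts, labelled whole heart and described as flash-frozen cardiac ventricle, from untreated mice 3 to 6 weeks old. The 4 control hearts were Ctla4+/+;Pdcd1-/- and the 3 ICI-myocarditis hearts were Ctla4+/-;Pdcd1-/-. All 7 animals therefore carried the Pdcd1 deletion, no wild-type heart was compared, and the model rests on inherited alleles with no inhibitor given. Ctla4 and Pdcd1 encode the T cell receptors CTLA-4 and PD-1, which checkpoint inhibitors block. The labels do not say whether animals shared a litter or a cage, so p-values measure the spread between these 7 hearts.

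Glycolysis converts glucose to pyruvate, which is oxidised in mitochondria or reduced to lactate, and glycogen is the stored form of glucose. Many steps are run by isoenzymes encoded by separate genes, of which some are typical of striated muscle and others of leukocytes, liver, brain or most cells. The adult heart burns mainly fatty acids, keeps the insulin-responsive transporter GLUT4, and can take up lactate as fuel. Activated leukocytes and inflammatory macrophages are known for high glycolysis. The comparison set the muscle isoforms against their leukocyte or ubiquitous partners in each library.

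A run of 250 bases upstream of the annotated start site is shown for 4 genes, from RefSeq on GRCm38.p6, in the direction of the gene. Hk2 and Hk3 are the muscle and leukocyte hexokinases whose ratio differed most between groups. Ldhb is the heart lactate dehydrogenase that was lower in ICI-myocarditis, and Slc16a3 encodes the lactate exporter that was higher. Capitals mark the letters ACGTG, the core of hypoxia response elements, on either strand. The windows are chr6:82774455-82774704 (minus strand), chr13:55021386-55021635 (minus strand), chr6:142507958-142508207 (minus strand) and chr11:120948817-120949066 (plus strand).
Hk2: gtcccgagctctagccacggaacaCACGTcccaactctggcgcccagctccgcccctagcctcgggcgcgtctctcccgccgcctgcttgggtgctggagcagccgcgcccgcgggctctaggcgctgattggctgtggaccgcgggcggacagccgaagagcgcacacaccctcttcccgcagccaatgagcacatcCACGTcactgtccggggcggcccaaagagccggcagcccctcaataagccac
Hk3: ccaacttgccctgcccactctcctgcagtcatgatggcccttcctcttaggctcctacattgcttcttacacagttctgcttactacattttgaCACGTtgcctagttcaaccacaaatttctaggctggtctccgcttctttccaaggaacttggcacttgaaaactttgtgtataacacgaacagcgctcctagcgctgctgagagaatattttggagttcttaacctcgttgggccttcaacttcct
Ldhb: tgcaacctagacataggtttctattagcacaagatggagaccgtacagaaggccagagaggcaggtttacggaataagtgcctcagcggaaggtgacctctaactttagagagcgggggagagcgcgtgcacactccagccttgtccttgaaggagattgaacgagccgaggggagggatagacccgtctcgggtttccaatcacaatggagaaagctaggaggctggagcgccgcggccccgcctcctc
Slc16a3: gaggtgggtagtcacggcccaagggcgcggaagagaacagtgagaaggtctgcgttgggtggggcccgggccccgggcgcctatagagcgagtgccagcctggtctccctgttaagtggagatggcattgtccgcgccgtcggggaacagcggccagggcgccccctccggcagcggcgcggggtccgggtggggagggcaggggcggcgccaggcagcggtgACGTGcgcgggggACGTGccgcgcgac

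The window held 2 matches in Hk2, 1 in Hk3, 0 in Ldhb and 2 in Slc16a3. Of 32851 such windows in the table, 16.6% held ACGTG. The set of RefSeq windows used here held 53 for 33 of the 35 genes, and it lacked Slc2a3 and Slc2a4. Some windows overlapped because a gene can have several start sites, and 22 of the 53 (41.5%) held ACGTG. Windows of muscle forms held it in 10 of 18 cases and windows of ubiquitous forms in 9 of 22, so the motif did not separate the forms. ACGTG is rich in G and C, and the median GC content was 60% in the windows of these genes and 52.4% in all windows. The part of GC content in the shares with ACGTG was not tested. The muscle motif CATTCC (M-CAT), searched on either strand, was in 6 of 53 windows (11.3%) and in 12.6% of all windows. Such matches describe letters only and are not evidence of binding.

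The filter, 3 or more libraries with 10 or more normalized counts, left 34 of the 35 genes. Eno1 missed it, being listed at 0 in all 7 libraries. With limma on log2(normalized count + 1) and adjustment over 15258 genes, 8 of the 34 were higher in ICI-myocarditis (23.5%, against 11.7% of all genes tested) and 3 were lower (8.82%, against 4.00%). In both directions together 15.7% of all genes were called. The groups did not overlap for 10 genes in the upward direction (29.4%, against 17.3% of all genes) and for 8 in the downward direction (23.5%, against 11.3%), and over both directions 28.6% of all genes had groups apart. The median log2 fold change was -0.11, beside -0.02 over all genes. The 8 genes that rose were Slc2a1, Slc2a3, Slc16a3, Hk3, Pfkp, Aldoc, Pfkfb3 and Pfkfb4, and the 3 that fell were Ldhb, Pfkfb2 and Pfkfb1.

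**Figure D1:**
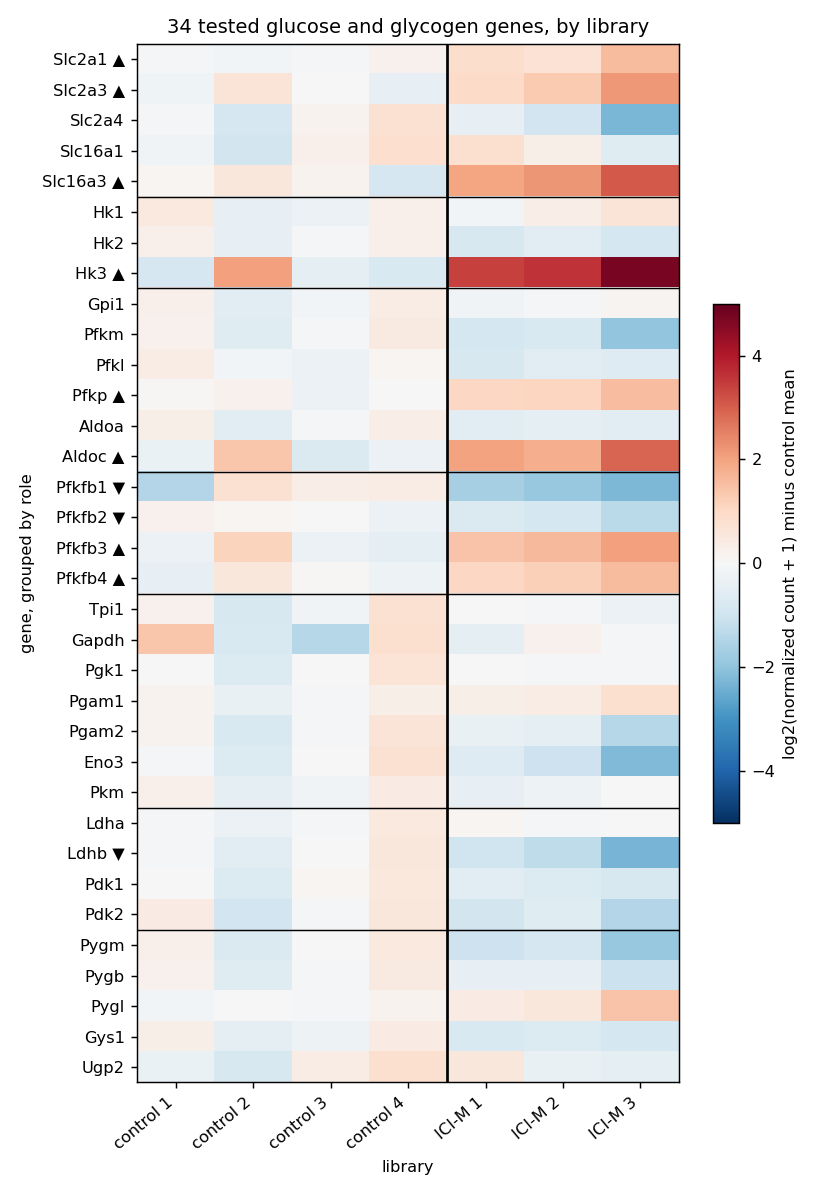
Level of each tested gene in each library, as log2(normalized count + 1) minus the mean of the 4 controls, with genes in rows grouped by role and libraries in columns. Upward and downward triangles mark the 8 genes called higher and the 3 called lower in ICI-myocarditis (ICI-M), and the strongest colours in most rows are those of ICI-myocarditis 3.

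The direction of change differed by isoform class. None of the 11 genes classed as muscle or heart forms rose (against 11.7% of all genes tested) and 2 fell (18.2%, against 4.00%). Their median log2 fold change was -0.99, with 10 of 11 below 0. Of the 15 tested ubiquitous or other-tissue forms, 8 rose (53.3%) and 0 fell, against the same shares of all genes. Their median was 1.07, with 12 of 15 above 0. The 7 enzymes treated as a single form had 0 calls (against 15.7% of all genes in both directions) and a median of -0.11. Ldha, the skeletal muscle subunit that most cells also carry, was classed as ubiquitous because Ldhb is the heart form, and Aldoa, also widespread, was classed as muscle. Ldha and Aldoa were not called (limma adjusted p = 0.986 and 0.320), so exchanging their classes could not change a count of calls. The exchange left both medians as they were, with 9 of 11 below 0 and 11 of 15 above 0 in place of 10 and 12. Slc16a1 was classed as muscle, and Slc16a3, among the 8 that rose, as ubiquitous or other-tissue. Pdk2 was classed as muscle and Pdk1 as ubiquitous or other-tissue. These classes were not exchanged, and the counts depend on such choices. Exchanging the Slc16a pair would place a gene that rose among the muscle forms. Pfkfb1, a liver and skeletal muscle form that fell, was placed in none of these classes. Classes were assigned by hand with earlier results of these data known, and other assignments are possible. The counts therefore describe the genes and carry no test of their own.

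**Figure D2:**
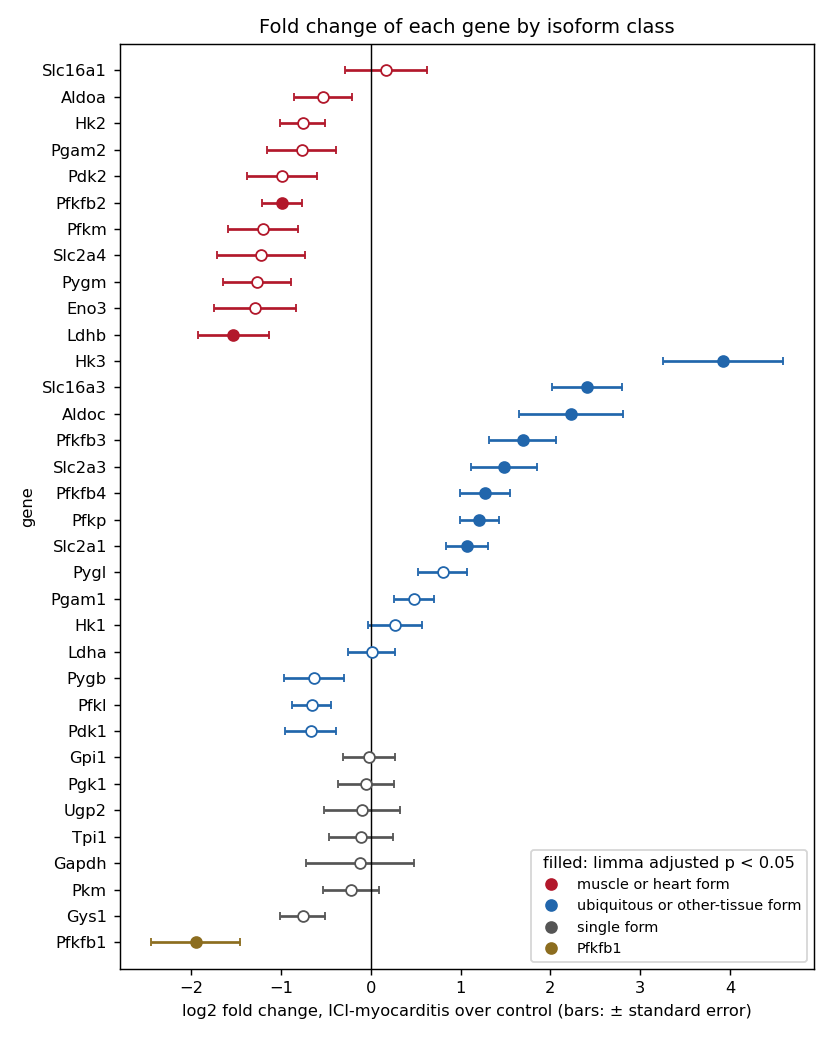
Log2 fold change of each of the 34 tested genes, ICI-myocarditis over control, with its standard error from limma as a horizontal bar and colour for isoform class. Filled points passed the adjusted threshold, and all 8 filled points right of 0 belong to genes classed here as ubiquitous or other-tissue forms.

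The calls depended on single hearts. Without ICI-myocarditis 3 the fit called 3 genes higher and 0 lower. Without control 3 it called 4 higher and 0 lower, without control 1 it called 5 higher and 2 lower, without control 4 it called 7 higher and 1 lower, and without ICI-myocarditis 2 it called 6 higher and 0 lower. Without control 2 it called 8 higher and 11 lower. The genes gained there were Slc2a4, Hk2, Pfkm, Eno3, Pdk1, Pdk2, Pygm and Gys1. Calls over all genes moved as well, from 2397 of 15258 in the main fit. They were 986 of 15046 without ICI-myocarditis 3, 1298 of 15145 without control 3 and 1508 of 15188 without control 1. They were 2092 of 15196 without control 4, 1396 of 15053 without ICI-myocarditis 2 and 3340 of 15126 without control 2. DESeq2 on the recovered reads gave 9 higher and 10 lower, and the authors' deposited table also gave 9 higher and 10 lower among 34 genes with an adjusted p, where 20.2% of all genes passed.

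The libraries held 20931730 to 39037176 reads in genes. Counts of the genes altered by genotype do not check the labels, since they do not show which exons were read. Ctla4 had 29.24, 113.5, 69.23 and 41.29 normalized counts in controls and 282.4, 250.7 and 372.9 in ICI-myocarditis, where 1 allele is deleted. Pdcd1, deleted in all 7 animals per the labels, had 9.074, 244.2, 3.35 and 2.502 in controls and 1481, 1096 and 1340 in ICI-myocarditis. Both were higher in every myocarditis heart, and the groups rest on the labels alone.

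Leukocyte markers rose in ICI-myocarditis, and no cardiomyocyte marker was called. None of the 12 cardiomyocyte markers was at 0 in all libraries, and all 12 had a fold change below 0, with a median log2 fold change of -0.79. Their summed level was 5327016, 2743761, 4397188 and 5721529 normalized counts in controls 1 to 4 and 2743341, 3253172 and 2026567 in ICI-myocarditis 1 to 3. Control 2 was thus within the range of the myocarditis hearts. All 5 general leukocyte markers rose, and their sum was 2147, 7120, 2533 and 1906 in controls and 20688, 20483 and 34476 in ICI-myocarditis. Control 2 was the highest control and ICI-myocarditis 3 the highest library. All 8 macrophage and monocyte markers and all 6 T cell markers rose as well. T cell sums ran from 101.3 to 1308 in controls, with control 2 the highest, and from 5926 to 9054 in ICI-myocarditis. Macrophage and monocyte sums ran from 10658 to 16156 in controls and from 52745 to 81530 in ICI-myocarditis. Of 6 neutrophil markers in the table, 3 could be tested. Csf3r rose, by 2.91 (limma adjusted p = 0.0139), and S100a8 and S100a9 had log2 fold changes of -0.20 and -0.62 (limma adjusted p = 0.901 and 0.645). The neutrophil sum ran from 48.39 to 210.9 in controls and from 320.2 to 876.4 in ICI-myocarditis. Fibroblast sums ran from 46972 to 69383 and from 112262 to 155331, with 2 of 6 markers called higher. Smooth muscle sums ran from 8926 to 17910 and from 5083 to 8535, with 2 of 4 markers called lower. Skeletal muscle sums were low, at most 186.5 in any library, and fat cell sums were at most 158.6. Red cell sums ran from 10875 to 42699 in controls and from 6933 to 28667 in ICI-myocarditis, although 4 haemoglobin rows were listed at 0 throughout. In such bulk tissue, fewer cells of a type and less RNA per cell cannot be told apart, and the part of cell content in each result was not tested.

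**Figure D3:**
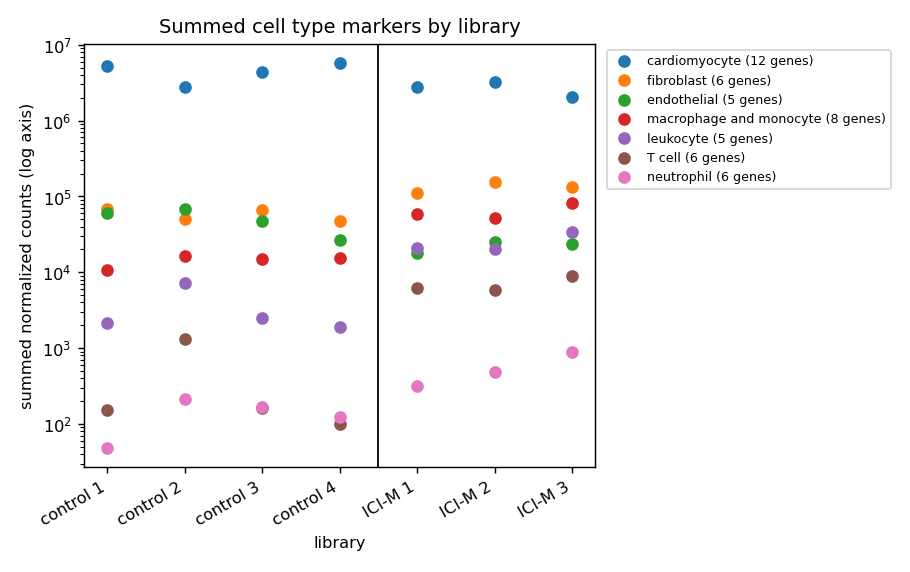
Summed normalized counts of 7 marker lists in each library on a log axis, 1 point per list and library. Control 2 has the lowest cardiomyocyte sum (2743761) and the highest leukocyte sum (7120) among controls, and ICI-myocarditis 3 has the lowest and highest of all 7 (2026567 and 34476).

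Positions below are gene spans on GRCm38 in GENCODE M21, 1-based, and values after ± are SDs over the 4 controls or the 3 myocarditis hearts. Glucose enters through GLUT proteins. Slc2a1 encodes GLUT1, the basal transporter of most cells (chr4:119108711-119137983, plus strand), and had 536.4, 508.2, 527 and 646.8 normalized counts in controls and 1012, 923.3 and 1662 in ICI-myocarditis. Every myocarditis heart was above every control. Slc2a1 rose by 1.07 on the log2 scale (standard error 0.235, limma adjusted p = 0.0162), a 2.10-fold change. Slc2a3, which encodes the high-affinity transporter GLUT3 of neurons and leukocytes (chr6:122727809-122801640, minus strand), had 77.63, 140.6, 87.1 and 66.31 in controls and 175, 223.9 and 403.4 in ICI-myocarditis. It rose by 1.48 (standard error 0.368, limma adjusted p = 0.0260), again with no overlap. Slc2a1 missed the threshold without control 3 (limma adjusted p = 0.0548) and without ICI-myocarditis 3 (0.0557), and Slc2a3 without control 1, control 3, ICI-myocarditis 2 or ICI-myocarditis 3 (0.0662 to 0.115).

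Slc2a4 encodes GLUT4, the transporter that insulin moves to the surface of muscle and fat cells. Its levels were 11616, 6867, 14038 and 20753 normalized counts in controls and 9190, 6374 and 2553 in ICI-myocarditis. Control 2 lay between the myocarditis hearts, so the groups overlapped. The log2 fold change was -1.22 (standard error 0.487, limma adjusted p = 0.129), and without control 2 the gene passed (limma adjusted p = 0.0441). Per kilobase of exon, Slc2a4 made up 95.5% ± 1.95 of the summed level of the 3 transporter genes over the 4 controls and 79.0% ± 16.7 over the 3 myocarditis hearts. In single hearts its share was 90.2%, 87.0% and 59.8% in ICI-myocarditis, against at least 92.7% in each control. The summed level was 4940 ± 2071 normalized counts per kb in controls and 2587 ± 1054 in ICI-myocarditis.

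Lactate and pyruvate cross the membrane through monocarboxylate transporters. Slc16a3 encodes MCT4, the low-affinity exporter of glycolytic cells (chr11:120948480-120960868, plus strand), and had 109.9, 154.2, 117.2 and 56.3 normalized counts in controls and 405.2, 476.9 and 874.9 in ICI-myocarditis. It rose by 2.41 on the log2 scale (standard error 0.388, limma adjusted p = 0.00528), a 5.33-fold change that passed in all 15 alternative fits. Slc16a1 encodes MCT1, the transporter through which heart muscle takes up lactate. It ranged from 4037 to 13649 in controls and from 4987 to 13453 in ICI-myocarditis, with a log2 fold change of 0.17 (standard error 0.457, limma adjusted p = 0.849). Its sign turned without control 2 and without ICI-myocarditis 1. Slc16a3 held 1.73% ± 1.38 of the pair's level per kb in controls and 7.52% ± 6.42 in ICI-myocarditis, of which ICI-myocarditis 3 had 14.9%.

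Hexokinases trap glucose as glucose 6-phosphate. Hk3, found mainly in myeloid cells (chr13:55005985-55021385, minus strand), had 65.53, 482.3, 85.98 and 68.81 normalized counts in controls and 1263, 1437 and 3180 in ICI-myocarditis. Control 2 was well above the other controls and below every myocarditis heart. Hk3 had the highest fold change among these genes, 3.92 on the log2 scale (standard error 0.669, limma adjusted p = 0.00651), and it passed in all 15 alternative fits. Hk2, the insulin-regulated muscle form, had 15850, 9923, 12561 and 15736 in controls and 7551, 8901 and 7238 in ICI-myocarditis. The groups were apart, with a log2 fold change of -0.76 (standard error 0.255) that did not pass (limma adjusted p = 0.0766, and 0.0254 without control 2). Hk1, the form of most cells, overlapped between groups, with means of 6402 ± 1871 and 7665 ± 2011 and a log2 fold change of 0.27 (limma adjusted p = 0.595).

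The 3 hexokinases had a summed level per kb of 3780 ± 826.2 in controls and 3571 ± 673.0 in ICI-myocarditis (SD), while their shares differed. Hk2 held 63.8% ± 3.14 of that sum in controls and 40.4% ± 8.65 in ICI-myocarditis, with the lowest control at 61.2% and the highest myocarditis heart at 46.7%. Hk3 held 1.67% ± 2.23 and 15.8% ± 5.79. Its share was 13.1%, 11.9% and 22.5% in the myocarditis hearts, 5.0% in control 2 and at most 0.777% in the other controls.

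Phosphofructokinase-1 commits sugar to glycolysis and is built from muscle (Pfkm), liver (Pfkl) and platelet (Pfkp) subunits. Pfkm had 35584, 19869, 29406 and 41567 normalized counts in controls and 16692, 17924 and 7787 in ICI-myocarditis. The groups were apart, though control 2 was close to the myocarditis hearts. Its log2 fold change of -1.20 (standard error 0.385) did not pass (limma adjusted p = 0.0653, and 0.0234 without control 2). Pfkl had 5473, 3883, 3454 and 4507 in controls and 2420, 2971 and 2748 in ICI-myocarditis, also apart and also short of the threshold (log2 change -0.66, limma adjusted p = 0.0709). With Pdk1 and Pygb, Pfkl was a ubiquitous or other-tissue form whose fold change was below 0.

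Pfkp (chr13:6579768-6648777, minus strand) had 2876, 3181, 2280 and 2784 normalized counts in controls and 5630, 5805 and 8002 in ICI-myocarditis. It rose by 1.21 on the log2 scale (standard error 0.218, limma adjusted p = 0.00750), a 2.32-fold change that passed in all 15 alternative fits. Pfkp held 5.60% ± 2.15 of the phosphofructokinase level per kb in controls and 17.4%, 16.6% and 35.8% in the myocarditis hearts. Pfkm held 84.7% ± 4.18 in controls and 74.0%, 73.6% and 50% in those hearts. The summed level of the 3 subunits was 12347 ± 3204 normalized counts per kb in controls and 6948 ± 1547 in ICI-myocarditis.

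Aldolase splits fructose 1,6-bisphosphate. Aldoa, the form of muscle and many other cells, averaged 31850 normalized counts per kb in controls, second among the 35 genes to Ldhb at 32944. It lay between 54019 and 101159 normalized counts in controls and between 53907 and 56075 in ICI-myocarditis (log2 change -0.53, limma adjusted p = 0.320). Aldoc, the brain form (chr11:78322968-78327781, plus strand), was near the floor, with 6.049, 22.2, 4.467 and 6.256 normalized counts in controls and 34.79, 30.44 and 65.71 in ICI-myocarditis. It rose by 2.23 (standard error 0.580, limma adjusted p = 0.0309), but missed the threshold in 6 of 7 fits that left out 1 library (limma adjusted p from 0.0516 to 0.159), the exception being that without control 2. Its share of the pair stayed at or below 0.105% per kb in every library. Gpi1, which interconverts glucose and fructose phosphates, had 15261 ± 4119 and 14623 ± 1642 normalized counts (log2 change -0.02, limma adjusted p = 0.967).

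The PFKFB enzymes make and break fructose 2,6-bisphosphate, the strongest activator of phosphofructokinase-1. All 4 genes passed the test, against 15.7% of all genes. Pfkfb3, the inducible form with a high kinase to phosphatase balance (chr2:11471433-11554077, minus strand), had 908.4, 2392, 906.7 and 792 normalized counts in controls and 3013, 3413 and 4583 in ICI-myocarditis. It rose by 1.69 on the log2 scale (standard error 0.373, limma adjusted p = 0.0162). Control 2 stood above the other controls and below the myocarditis hearts. Pfkfb4, known from testis and as a hypoxia-inducible gene (chr9:108991778-109032228, plus strand), had 141.2, 275.1, 194.3 and 157.6 in controls and 383.7, 421.8 and 560.8 in ICI-myocarditis, and rose by 1.27 (standard error 0.277, limma adjusted p = 0.0156).

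Pfkfb2, the heart form (chr1:130689182-130729253, minus strand), went the other way. It had 4605, 4276, 3864 and 3204 normalized counts in controls and 2381, 2123 and 1569 in ICI-myocarditis, and fell by 0.99 on the log2 scale (standard error 0.220, limma adjusted p = 0.0169). Pfkfb1, the liver and skeletal muscle form (chrX:150588229-150643878, plus strand), had 105.9, 505.8, 375.2 and 386.6 in controls and 92.08, 78.27 and 61.13 in ICI-myocarditis. Control 1 was nearly as low as the myocarditis hearts. Pfkfb1 fell by 1.95 (standard error 0.495, limma adjusted p = 0.0283). Each of these calls was lost without some library, and all 3 of Pfkfb1, Pfkfb2 and Pfkfb3 were lost without ICI-myocarditis 3 (limma adjusted p = 0.107, 0.0836 and 0.0719). Pfkfb4 was lost there alone (0.0749). Control 3 mattered for Pfkfb1, Pfkfb2 and Pfkfb3 (0.0875, 0.0518 and 0.0568), control 1 for Pfkfb3 (0.0532), control 4 and ICI-myocarditis 1 for Pfkfb1 (0.0559 and 0.0550), and ICI-myocarditis 2 for Pfkfb1 and Pfkfb2 (0.0737 and 0.0541). With scaling by library size Pfkfb1 and Pfkfb2 also missed (0.0626 and 0.0634).

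Within this family the sum per kb was 1244 ± 256.2 in controls and 1236 ± 85.04 in ICI-myocarditis (SD), yet the leading gene differed. Pfkfb2 held 78.1%, 52.8%, 65.6% and 62.8% in controls 1 to 4 and 40.3%, 35.2% and 23.4% in ICI-myocarditis. Pfkfb3 held 14%, 26.9%, 14% and 14.1% in controls and 46.4%, 51.5% and 62.3% in ICI-myocarditis. Pfkfb2 led in every control and Pfkfb3 in every myocarditis heart.

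**Figure D4:**
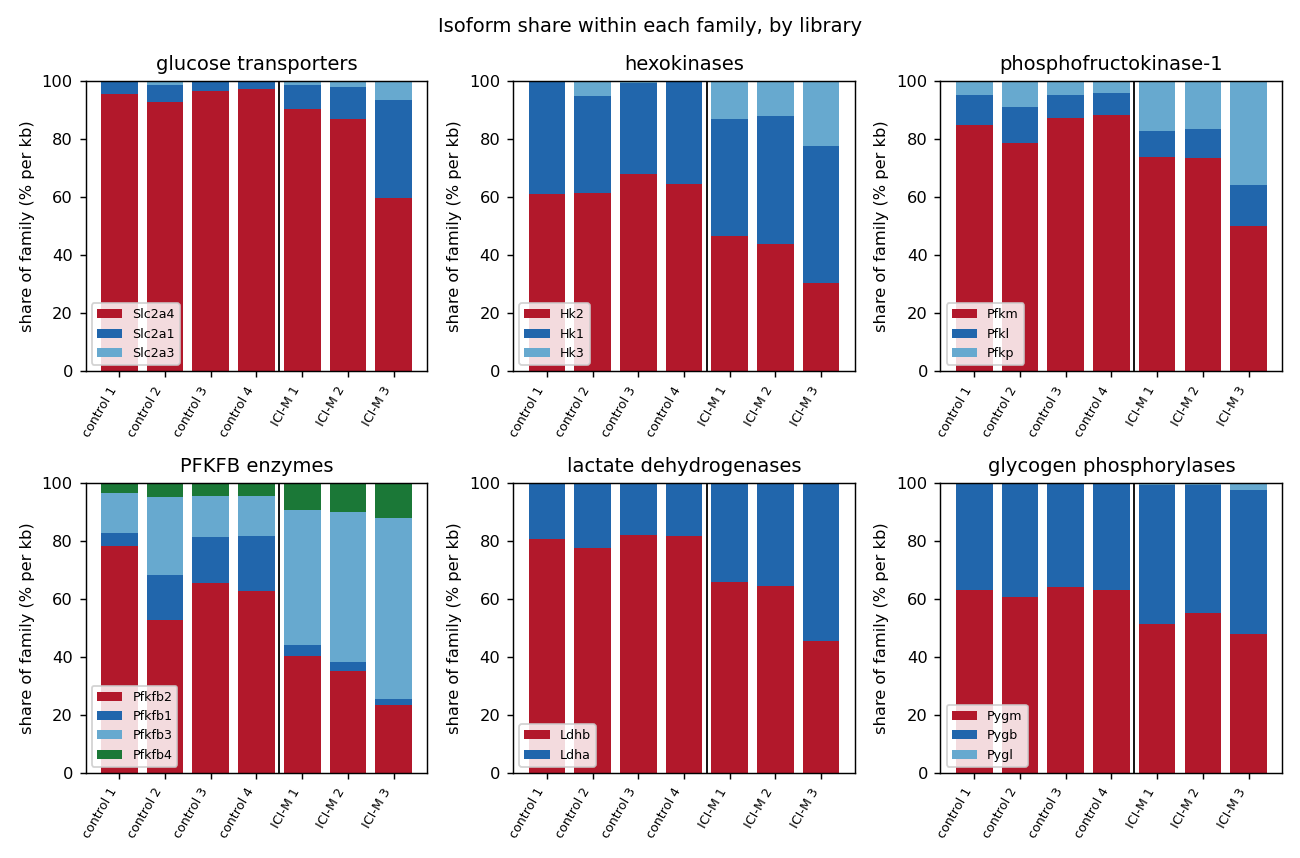
Share of each isoform in the summed level of its family, in percent of normalized counts per kb of exon, as stacked bars for the 7 libraries, with the muscle or heart form in red at the bottom. In the 6 families drawn (glucose transporters, hexokinases, phosphofructokinase-1, PFKFB enzymes, lactate dehydrogenases and glycogen phosphorylases) the red bar is lower in each ICI-myocarditis heart (ICI-M) than in any control, lowest in ICI-myocarditis 3.

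The other families were pairs. Pgam2 held 93.3%, 92.4% and 82.4% of its pair in the myocarditis hearts, below the lowest control at 94.4%. Groups overlapped for Slc16a1, with 97.1% in ICI-myocarditis 1 and 96.3% in control 2, and for Pdk2, with 83.2% in ICI-myocarditis 2 and 79.7% in control 2. Aldoa held nearly all of its pair, with Aldoc at no more than 0.105% in any library.

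Of the 7 tested genes of the later steps of glycolysis, which handle triose phosphates, 0 were called, against 15.7% of all genes. With 7 genes this count does not set these steps apart. Eno3, among them, passed in 3 of 15 alternative fits and in the authors' deposited table. Tpi1, Pgk1 and Pkm, which encode triose phosphate isomerase, phosphoglycerate kinase and muscle-type pyruvate kinase, had log2 fold changes of -0.11, -0.05 and -0.22 (limma adjusted p = 0.868, 0.932 and 0.682). Pgk1 ran from 5114 to 13110 normalized counts in controls and from 7681 to 8273 in ICI-myocarditis. Counts per gene do not separate the PKM1 and PKM2 splice forms of Pkm. With scaling by library size the signs of Gpi1, Tpi1, Gapdh, Pgk1 and Ugp2 turned upward, so no direction is given for them.

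Gapdh and Eno1 could not be read as usual. Gapdh had 2174, 495.9, 310.4 and 1435 normalized counts in controls and 587.3, 978.3 and 790.1 in ICI-myocarditis, or 738.3 per kb in controls, beside 7751 for Tpi1 and 4747 for Pgk1. The controls spanned all myocarditis values (log2 change -0.12, limma adjusted p = 0.925). Eno1 was at 0 in all 7 libraries, and its near-identical copy Gm5506 (Eno1b) had 40.71 to 183.4. Both genes have near-identical copies elsewhere in the genome, and how reads with several matches were counted is not given in the sources used here. Values for Gapdh and Eno1 are therefore uncertain, and Gapdh gave no stable reference level here.

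Phosphoglycerate mutase and enolase have muscle forms. Pgam2, the muscle mutase, had 13825, 7218, 11498 and 18790 normalized counts in controls and 9425, 8549 and 4497 in ICI-myocarditis, which overlapped (log2 change -0.77, limma adjusted p = 0.217). Pgam1, the general form, had 1337, 907.9, 1091 and 1416 in controls and 1420, 1494 and 2032 in ICI-myocarditis. Those groups were barely apart, and Pgam1 did not pass (log2 change 0.48, limma adjusted p = 0.188). Eno3, the muscle enolase, had 39908, 26344, 43536 and 71712 in controls and 27510, 20555 and 9320 in ICI-myocarditis. Its log2 fold change was -1.29 (standard error 0.454, limma adjusted p = 0.0884, and 0.0353 without control 2).

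Lactate dehydrogenase tetramers mix a heart subunit (Ldhb) with a subunit of skeletal muscle and many other cells (Ldha). Ldhb (chr6:142490249-142507957, minus strand) had 40055, 27865, 42432 and 61485 normalized counts in controls and 20484, 17153 and 8297 in ICI-myocarditis, with no overlap. It fell by 1.53 on the log2 scale (standard error 0.396, limma adjusted p = 0.0305), a 2.89-fold decrease. The call was lost without control 1, control 3, control 4, ICI-myocarditis 2 or ICI-myocarditis 3 (limma adjusted p from 0.0549 to 0.128). Ldha had 13884, 11760, 13419 and 20176 in controls and 15514, 13811 and 14522 in ICI-myocarditis, with a log2 fold change of 0.01 (standard error 0.262, limma adjusted p = 0.986).

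Ldhb held 80.7%, 77.5%, 82.1% and 81.6% of the lactate dehydrogenase level per kb in controls 1 to 4. In the myocarditis hearts it held 65.7%, 64.3% and 45.4%, so Ldha led in ICI-myocarditis 3. The summed level was 40759 ± 12554 normalized counts per kb in controls and 19455 ± 5008 in ICI-myocarditis (SD).

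Pyruvate dehydrogenase kinases restrain the entry of pyruvate into the citric acid cycle. Pdk2 had 14794, 5735, 10520 and 16389 normalized counts in controls and 5823, 7275 and 3967 in ICI-myocarditis, with control 2 inside the myocarditis range. Its log2 fold change was -0.99 (standard error 0.390, limma adjusted p = 0.121, and 0.0145 without control 2). Pdk1 had 5642 ± 1835 and 3396 ± 336.0 (log2 change -0.67, limma adjusted p = 0.149, and 0.0212 without control 2). The kinases thus had the same sign, and their shares of the pair overlapped between groups.

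Glycogen phosphorylase releases glucose 1-phosphate from glycogen. Pygm, the muscle form, had 39988, 20476, 33481 and 46517 normalized counts in controls and 16322, 18537 and 8977 in ICI-myocarditis. The groups were apart, and the log2 fold change of -1.27 (standard error 0.378) lay just outside the threshold (limma adjusted p = 0.0511). Pygm passed in 6 of 15 alternative fits, among them that without control 2 (limma adjusted p = 0.0121) and DESeq2 (adjusted p = 0.00411). Pygb, the brain form, was also abundant in these hearts, with 27933 ± 8198 and 17863 ± 4483 (log2 change -0.63, limma adjusted p = 0.245). Pygl, the liver form that leukocytes also carry, had 174.4, 194.9, 188.7 and 221.5 in controls and 260.9, 284.8 and 523.4 in ICI-myocarditis, apart but short of the threshold (log2 change 0.80, limma adjusted p = 0.0827).

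Pygm held 62.7% ± 1.49 of the phosphorylase level per kb in controls and 51.5%, 55.0% and 47.9% in the myocarditis hearts, so that Pygb led in ICI-myocarditis 3 at 49.7%. The sum of the 3 genes was 19422 ± 5957 normalized counts per kb in controls and 9761 ± 2824 in ICI-myocarditis. On the synthesis side, Gys1, the glycogen synthase of muscle and most tissues, had 5314, 3155, 3647 and 5825 in controls and 2567, 2726 and 2388 in ICI-myocarditis. It was apart with a log2 fold change of -0.76 (limma adjusted p = 0.0715, and 0.0218 without control 2). Ugp2, which makes UDP-glucose, had 8684 ± 4121 and 7862 ± 3466 (log2 change -0.10, limma adjusted p = 0.906).

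Isoform ratios were formed within each library from normalized count + 1. Library scaling and gene length nearly cancel from a difference between groups, but less so for genes near the floor. Aldoc/Aldoa differed by 2.76, and by 1.99 with a pseudocount of 10. The ratio of partner to muscle isoform was compared for 15 pairs with a two-sided exact permutation test. The pairs and their order followed the classes above, which were set with earlier results of these data known. Signs and p-values therefore describe these pairs, and exchanging Slc16a3 and Slc16a1 would turn the sign of their difference. Its 35 possible splits of the hearts set a smallest p of 0.0286. All 15 differences were positive, from 0.32 to 4.68 on the log2 scale, 11 pairs had groups that did not overlap, and 9 reached that smallest p. Adjusted over the 16 ratios planned, those 9 gave p = 0.0508 in the exact permutation test, so 0 of 15 passed. The planned pair Eno1/Eno3 was not computed further because Eno1 was at 0, and adjusted over the other 15 the same 9 gave p = 0.0476 (exact permutation test), so a pass rests on that omission, made after the values were seen. Limma on the log2 ratios, a different test on the same 15, put 13 of them past the threshold. Slc2a4, Hk2, Pfkm, Pfkfb2 and Pygm each stand in a pair of ratios, so the 15 are not independent.

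Pfkp/Pfkm had log2 ratios of -3.63, -2.64, -3.69 and -3.90 in controls and -1.57, -1.63 and 0.04 in ICI-myocarditis, a difference of 2.41 (exact permutation p = 0.0286). In ICI-myocarditis 3 the reads of both genes were thus nearly equal in number. Pfkfb3/Pfkfb2 went from -2.34, -0.84, -2.09 and -2.02 to 0.34, 0.68 and 1.55, a difference of 2.68 (exact permutation p = 0.0286). It was below 0 in every control and above 0 in every myocarditis heart. Ldha/Ldhb went from -1.53, -1.24, -1.66 and -1.61 to -0.40, -0.31 and 0.81, a difference of 1.54 (exact permutation p = 0.0286).

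Slc2a1/Slc2a4, Hk1/Hk2, Pfkfb4/Pfkfb2, Pgam1/Pgam2, Pygb/Pygm and Pygl/Pygm also had exact permutation p = 0.0286, with differences of 2.28, 1.03, 2.26, 1.24, 0.64 and 2.07. None of the 7 genes in Hk1/Hk2, Pgam1/Pgam2, Pygb/Pygm and Pygl/Pygm was called singly. The control SD of Pygb/Pygm was 0.09. Hk3/Hk2 and Aldoc/Aldoa had groups apart but a control 2 far above the other controls, and gave exact permutation p = 0.0571 (adjusted 0.0831), while limma on the ratios gave adjusted p = 0.00487 and 0.0127. Hk3/Hk2 had the widest difference, 4.68, with control 2 at -4.36 and the other controls between -7.90 and -7.17.

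Ratios that overlapped between groups were Slc2a3/Slc2a4 and Slc16a3/Slc16a1 (exact permutation p = 0.0857, adjusted 0.0980), Pfkl/Pfkm (p = 0.229, adjusted 0.244, exact permutation test) and Pdk1/Pdk2 (p = 0.286, exact permutation test). Pfkl/Pfkm differed by 0.54 and Pdk1/Pdk2 by 0.32, with control SDs of 0.39 and 0.30. For the Slc2a3 and Slc16a3 ratios limma gave adjusted p = 0.0212 and 0.0390. In these, control 2 reached -5.60 and -4.70, above ICI-myocarditis 1 at -5.71 and -5.05.

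**Figure D5:**
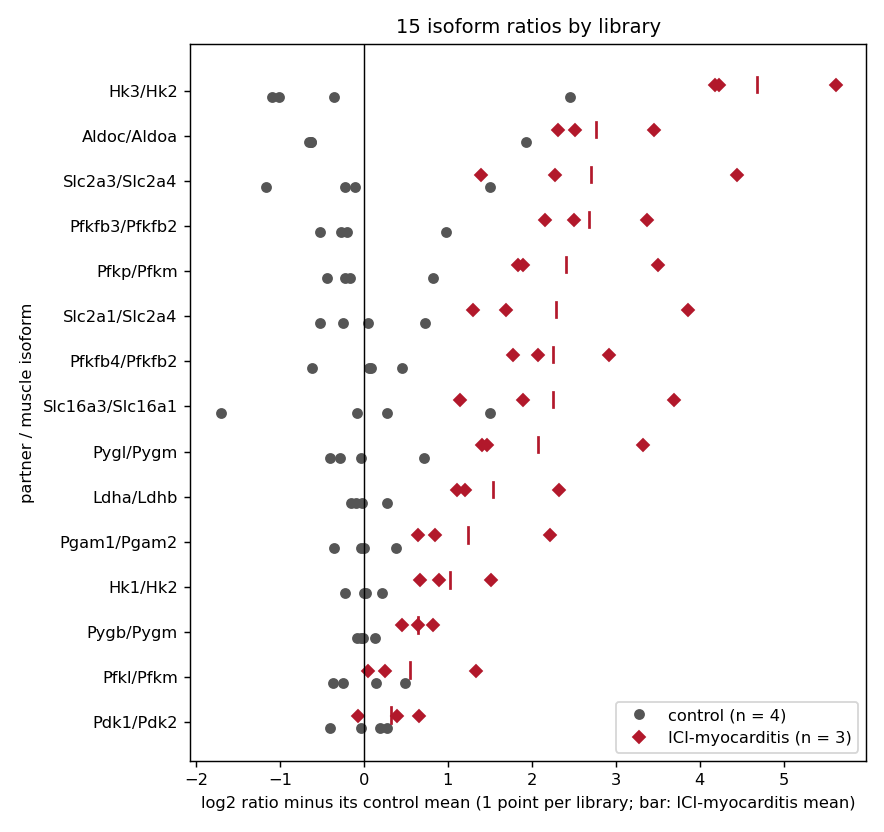
Log2 ratio of partner to muscle isoform in each library, minus the control mean of that ratio, with circles for the 4 controls, diamonds for the 3 ICI-myocarditis hearts and a bar at the ICI-myocarditis mean. The mean lies right of 0 for all 15 ratios (0.32 to 4.68), and ICI-myocarditis 3 is the rightmost point in each.

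Single hearts followed an order across the genes. ICI-myocarditis 3 was furthest from the controls for all 8 genes that rose and all 3 that fell, and it was the lowest myocarditis heart for 11 of 11 muscle forms. Control 2 was the lowest control for 10 of 11 muscle forms, and control 4 the highest for 9. The summed cardiomyocyte markers had the same extremes, lowest in control 2 and highest in control 4 among controls and lowest of all in ICI-myocarditis 3. Their part in the order was not tested.

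Other genes of glucose metabolism came from a list of 102, of which 94 were tested, 5 were higher (5.32%, against 11.7% of all genes) and 9 were lower (9.57%, against 4.00%), with a median log2 fold change of -0.33. Of 13 tested transport genes, Slc2a6, a lysosomal transporter of macrophages, rose by 3.01 (45.92 ± 33.43 to 311.9 ± 109.7 normalized counts, limma adjusted p = 0.0106). Slc2a12, which encodes GLUT12, fell by 1.78 (340.7 ± 191.0 to 103 ± 56.44, limma adjusted p = 0.0491) and missed the threshold in 6 of 7 fits that left out 1 library (0.0517 to 0.162), passing there only without control 2. Of 11 other glycolytic enzymes 3 fell (27.3%, against 4.00% of all genes). Among them were Ldhd, the mitochondrial D-lactate dehydrogenase (-1.51, limma adjusted p = 0.0199), and Galm, which interconverts glucose anomers (-1.01, limma adjusted p = 0.0145).

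Of 25 tested genes of glycogen handling, 1 fell (4%, as for 4.00% of all genes). It was Epm2a, the glycogen phosphatase laforin, which fell by 1.24 (limma adjusted p = 0.0200). Pgm2l1, the next in that group, had a log2 fold change of -0.74 (limma adjusted p = 0.0593). Among 13 genes of pyruvate entry into mitochondria, 12 had a fold change below 0 and the median was -0.90. Pdp2, a phosphatase that activates pyruvate dehydrogenase, fell by 1.58 (1438 ± 430.5 to 504.8 ± 220.8 normalized counts, limma adjusted p = 0.0206). Pdk3 alone in that group rose, by 1.19 (limma adjusted p = 0.0269), beside the Pdk1 and Pdk2 values above.

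Of 14 genes of the pentose phosphate and hexosamine branches, 2 rose (14.3%, near the 11.7% of all genes) and 0 fell. They were G6pdx and Pgd, the NADPH-producing enzymes of the oxidative pentose phosphate branch. G6pdx had 325.7, 377.5, 294.8 and 242.7 normalized counts in controls and 587.3, 700.8 and 1426 in ICI-myocarditis, a rise of 1.45 (standard error 0.313, limma adjusted p = 0.0151). Pgd rose by 1.02 (685.3 ± 123.0 to 1425 ± 463.4, limma adjusted p = 0.0245). ICI-myocarditis 3 was the highest library for both.

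Of 18 regulators, 1 rose (5.56%, against 11.7% of all genes) and 3 fell (16.7%, against 4.00%). Myc, a transcription factor known to drive glycolytic genes, had 110.9, 83.88, 132.9 and 110.1 normalized counts in controls and 282.4, 482.7 and 700.7 in ICI-myocarditis, a rise of 2.07 (standard error 0.327, limma adjusted p = 0.00495). Epas1, which encodes the endothelium-rich hypoxia factor HIF-2α, fell by 1.25 (21882 ± 5261 to 9186 ± 2022, limma adjusted p = 0.0183). The summed endothelial markers ran from 26431 to 67922 in controls and from 17705 to 25431 in ICI-myocarditis, with 2 of 5 called lower, and their part in the Epas1 value was not tested. The other regulators that fell, named after their values were seen, were Mlxipl, which encodes the carbohydrate sensor ChREBP (-1.36, limma adjusted p = 0.0371), and the insulin receptor substrate Irs1 (-0.96, limma adjusted p = 0.0417). Leaving out 1 library kept the Myc and G6pdx calls in all 7 fits and that of Slc2a6 in all but the fit without ICI-myocarditis 3 (limma adjusted p = 0.0511). Without ICI-myocarditis 3 the limma adjusted p was 0.0955 for Pgd, 0.124 for Pdk3, 0.0753 for Epm2a, 0.0654 for Galm, 0.0567 for Pdp2 and 0.0508 for Epas1. Without control 3 it was 0.0775 for Pgd, 0.0656 for Pdp2, 0.0626 for Ldhd, 0.0625 for Epm2a and 0.0524 for Galm. Without control 1 it was 0.0685 for Pdk3, 0.0562 for Epm2a, 0.0526 for Pdp2 and 0.0516 for Ldhd. Without ICI-myocarditis 1 or 2 some calls were lost too, at 0.0724 for Epas1 and 0.0621 for Pdk3 without the former, and at 0.0639 for Pgd and 0.0548 for Galm without the latter, while Pgm2l1 passed without control 4 (0.0197).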

How the data were processed

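RNA from 7 mouse hearts was sequenced, per the labels' protocols, from a stranded total RNA kit with paired reads of 150 bases. Per the submitters' processing notes, STAR 2.7.3 and the build GRCm38 (mm10) were used. The counting program, annotation, use of strand and handling of reads with several matches are not given in the sources used here. The authors deposited 1 table, whose per-library values are a signal, that is, reads per gene after division by a size factor of that library. Per the file headers it also holds the authors' comparison: log2 fold changes, a score (their statistic) and p-values, raw and adjusted, under DESeq2's column names.

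Dividing each column by its smallest value gave whole numbers (within 0.01 reads) for 100% of values, and totals of 20931730 to 39037176 reads. In control 1 that step was 1.0082, a weaker sign of recovery. At this depth the spread between hearts limits precision for all but the lowest genes, and intervals from reads would cover counting error only.

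Levels were tested in R 4.3.3 by limma 3.58.1, applied to log2(normalized count + 1) with trend and robust variance, for genes with at least 10 in at least 3 libraries, with Benjamini-Hochberg adjustment over all 15258 and a threshold of 0.05. Fold changes are on that scale, which understates change in low genes. Levels per kb used merged exons of protein-coding transcripts in the basic GENCODE M21 set, which may differ from the annotation counted. All 35 genes are named. Of the other list, the 10 genes with the lowest p and the 2 lowest of each sublist are named, plus 2 chosen after their values were seen (1 further called gene is not reported here), and 3 genes of the lists were found by an older symbol. Of 16 planned ratios Eno1/Eno3 is not reported because Eno1 was at 0, and ratio p-values are adjusted over all 16. Alternatives used edgeR 4.0.16 and DESeq2 1.42.0 on the recovered counts, other scaling, pseudocount, filter and weights, and left out each library. The limma fit was checked on simulated counts drawn with the same dispersion for every gene and no outlying heart. That check therefore does not cover hearts that stand apart, such as control 2. Genes and lists were chosen with earlier results of these data known.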

Additional observations from a re-analysis of the deposited data

Results flagged for a closer look

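Among the 4 controls, 49 values (34 genes and 15 ratios, on the log2 scale) were examined for 1 library whose gap to its nearest neighbour exceeded the critical value of Dixon's test, and chance alone flags about 1 in 20. For 3 of them it did, each time control 2 on the high side. The gap was 0.865 of the range for Hk3, 0.876 for Pfkfb3 and 0.991 for Aldoc/Aldoa. Values of Aldoc in controls lay between 4.467 and 22.2 normalized counts, near the floor. Control 2 also had the highest summed leukocyte markers among controls, 7120 normalized counts, and the part of that in the 3 values was not tested.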

How the results depend on the processing

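Over 15 alternative fits the 34 tested genes kept their direction except for 7 genes near 0, and 416 of 510 comparisons kept both direction and side of the threshold. Scaling by library size placed the median log2 fold change of all genes at 0.135 (against -0.02), and there Gpi1 (0.14), Tpi1 (0.05), Gapdh (0.04), Pgk1 (0.11) and Ugp2 (0.06) changed sign. Gapdh was 0.43 under limma-voom with quality weights. Ldha was -0.02 with edgeR and DESeq2 and -0.01 under limma-voom. Leaving out 1 library gave -0.16 to 0.56 for Slc16a1 (-0.14 without control 2), -0.20 to 0.10 for Gpi1, -0.38 to 0.14 for Tpi1, -0.59 to 0.35 for Gapdh, -0.28 to 0.17 for Pgk1, -0.09 to 0.17 for Ldha and -0.44 to 0.16 for Ugp2.

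The number of all genes called was 2397, and 4050 under limma-voom. Leaving out 1 library gave 986 to 3340 calls over all genes, 3 to 8 genes of the 35 higher and 0 to 11 lower, 2 to 7 of the other glucose genes higher and 1 to 23 lower. DESeq2 called 10 of the 35 lower and limma-voom 12. Of the other glucose genes DESeq2 called 9 higher and 17 lower, and limma-voom 9 higher and 27 lower. The cause of these differences was not tested. Ratios with groups apart numbered 11 to 13 of 15 when 1 library was left out and 11 with a pseudocount of 10. An exact test with a library left out cannot reach the threshold. The number of ratios passing adjustment was 0 over the 16 planned, 9 over the 15 computed (an adjustment chosen after seeing the data) and 13 with limma on the ratios, the exceptions being Pfkl/Pfkm (0.243) and Pdk1/Pdk2 (0.350).

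Deviations of same-numbered hearts from their group means correlated at -0.271, -0.206 and -0.0784. These values cannot exclude a shared litter or cage, which the labels do not give. With the replicate block 1780 genes were called, 6 of the 35 were higher and 2 lower, and of the other glucose genes 3 were higher and 3 lower. Control 4 has no same-numbered myocarditis heart, so under the block it did not enter the fold changes. Gpi1 (0.10), Tpi1 (0.14), Gapdh (0.15), Pgk1 (0.17) and Ugp2 (0.16) changed sign there, with the same values as in the fit without control 4.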
